A study of Zea mays with 144 samples.

Results

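Of the 12160 features of a spotted maize cDNA array, 122 were chosen by their measured values. Their RNA was on average at a similar level at tetrad and early microspore, and was then much lower at mid-microspore. The choice used 8 slides. On the 4 slides that set mid- against early microspore pools, a feature's mean log2 ratio had to be -1.2 or less with the same sign on each slide. On the 4 slides that set early microspore against tetrad pools, its mean had to lie within 0.5 of 0. In all, 128 features met these limits, and 6 features of HSP18, hsp18c, sbp27, pdh2 and cyclin4 were left out by name. Of the 122 members, 82 had 1 gene in the array annotation, 3 had several and 37 had none. The 82 features stood for 76 genes, of which 74 are annotated as protein coding, and 7 of the members had a gene name beyond a locus number.

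Anthers of the maize inbred Ky21 were dissected from the upper and the lower floret that each spikelet of a tassel contains. Light microscopy placed them in 6 stages: meiocyte, a mixed class of dyad/tetrad, tetrad, the microspore stages early and mid, and a mixed class of mid/late microspore. Each stage and floret had 2 RNA pools, 24 pools in all, made from the RNA of 1 to 4 plants with 8 to 20 anthers taken per tassel, and the RNA was amplified before labelling with Cy3 or Cy5. Of the 48 slides 24 set a stage against another within a floret and 24 set the florets of a stage against each other, always with 2 pools of the same set of 12. No treatment, mutant or second genotype was involved.

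In a maize anther the meiocytes lie inside several layers of wall cells, the innermost of which is the tapetum, a nurse tissue. Meiosis gives tetrads held in a callose wall, and the tapetum secretes the enzymes that free the young microspores and the materials that build their outer wall, before it breaks down. Microspores then enlarge and form a vacuole ahead of the divisions that make pollen. Whole anthers were sampled here, so that fewer cells of a type and less RNA per cell cannot be told apart.

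All values below are log2 ratios of the later over the earlier stage, or of the upper over the lower floret, averaged over the 3 scans of a slide. They measure ratios between pools and no absolute level, so they cannot show whether an RNA was still present after its fall. Which dye is the numerator of a deposited ratio is not in the labels. Reading it as Cy5 over Cy3 is likely and not certain, and it rests on 1 feature. That feature, of the recombinase gene rad51a, was lower at mid/late microspore than at meiocyte by a log2 ratio of -1.84 (limma, adjusted p = 0.00508). The other 3 meiosis features measured, at -1.46 (ZYP1), -0.67 (afd1) and -0.10 (rad51b), did not pass the test. At the step of the fall the meiosis features had no common direction. From early to mid-microspore rad51a stood at 0.62, afd1 at 1.07, ZYP1 at -0.81 and rad51b at -0.10. With the other reading every higher and lower between stages and florets would exchange places.

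The ratio used to choose the members had a median over the 122 of -1.53, with a range of -3.03 to -1.21. By slide, the median of the members was -1.57 and -1.38 in upper florets of sets 1 and 2 and -1.98 and -1.49 in lower florets of sets 1 and 2, so that the slide of lower florets of set 1 gave the lowest values. On the slides of early microspore against tetrad, the other part of the choice, the 4 medians lay between -0.06 and 0.11. Only the mean was limited at this step, so single slides could lie far from 0. Feature 5940, with a mean of 0.44, had 1.01 and -1.46 in upper and 1.27 and 0.92 in lower florets of sets 1 and 2. These values chose the members and are given as a description. Just inside the limit on the fall lay feature 2031 at -1.212 and LOC100191605 (feature 9119) at -1.213, and just outside it LOC100279858 (feature 11327) at -1.197 and feature 8435 at -1.185. At the upper edge of the limits between tetrad and early microspore, LOC100191951 (feature 1981) lay inside at 0.499 and feature 8759 outside at 0.507. At the lower edge, feature 8 lay inside at -0.471 and LOC100384278 (feature 2049) outside at -0.503. The limits cut a continuous range of values: 302 features had a mean of -1.2 or less with one sign on all 4 slides, of which 44 were already lower than tetrad by over 0.5 at early microspore and 130 were higher than tetrad by over 0.5 at that stage.

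**Figure D1:**
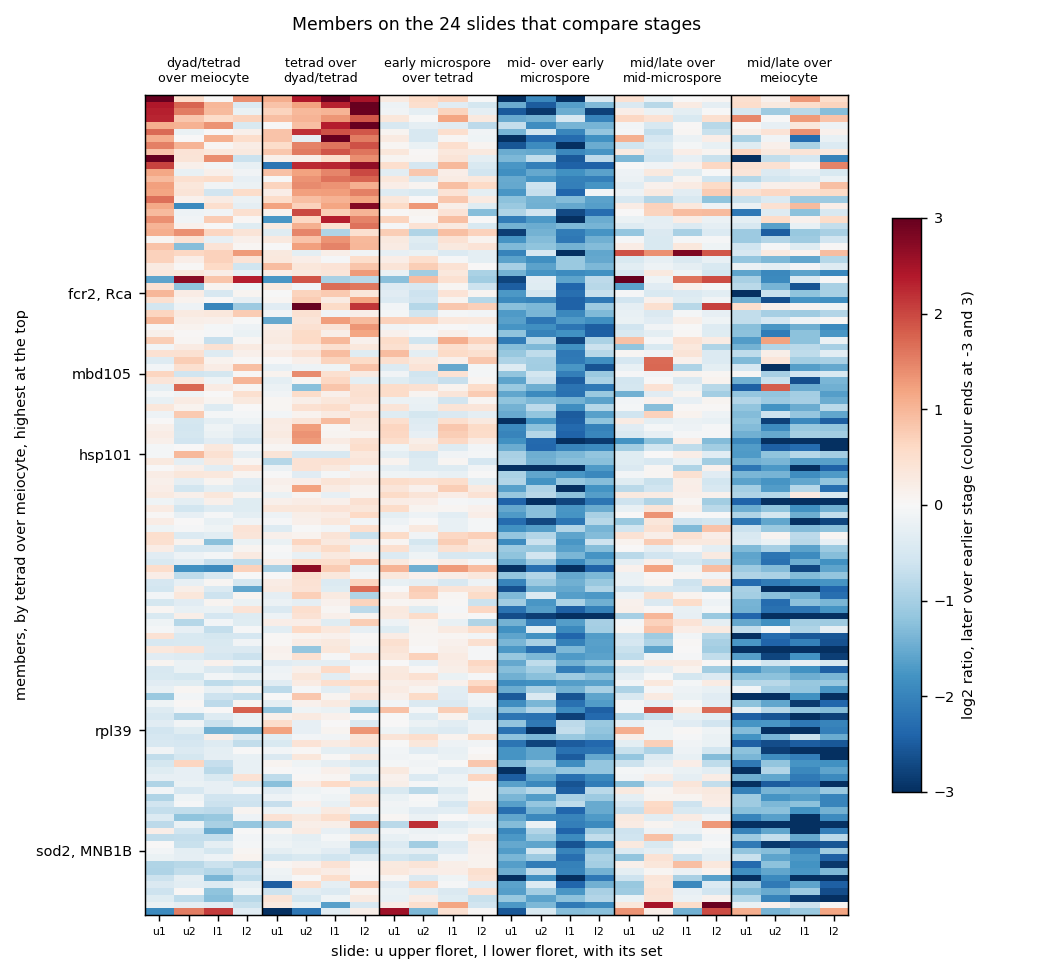
Log2 ratios (colour, later over earlier stage, ending at -3 and 3) of the 122 members (rows) on each of the 24 slides that compare stages (columns, by comparison, with floret and set below), sorted by the tetrad over meiocyte ratio. The fourth block, mid- over early microspore, is blue in every row because it chose the members. The first and second blocks are red near the top, where 21 members were higher at tetrad than at meiocyte by 1 or more, and the last block is blue except near the top.

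The end of the series was compared with its start in pools that the choice did not use. This comparison leaves out the stages just before and after the fall, so it cannot show whether the low level lasted. The last stage, mid/late microspore, was set against the first, meiocyte, on 4 slides of their own, and 83 of the 122 members were lower at mid/late microspore (limma, adjusted p under 0.05 over all 12160 features). In the same test 13.8% of all features were lower and 13.8% were higher, against 1 member that was higher. The members' log2 ratios had a median of -1.41, a 2.66-fold lower level, and a range of -3.76 to 0.88, where the median of all features was -0.01. On the slides themselves the members' medians were -1.23 and -1.32 in upper florets of sets 1 and 2, and -1.46 and -1.37 in lower florets of sets 1 and 2. Below 0 on all 4 of these slides were 95 members, compared with 25.4% of all features. The count of 83 lay between 67 and 92 under the alternatives tried.

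The florets gave similar counts when taken singly. In upper florets 70 members were lower at mid/late microspore than at meiocyte, against 5.39% of all features, with a median of -1.46. In lower florets 71 members were lower, against 5.44% of all features, with a median of -1.28. Of these, 68 members were lower in both florets (limma, adjusted p under 0.05). The share of all features lower in both was not counted and cannot exceed 5.39%. No member was higher in either floret, against 6.18% of all features in upper and 6.38% in lower florets. At an unadjusted p under 0.05, 1 member was higher in upper florets, against 13.1% of all features. In lower florets it was 0 members, against 13.5%. The change was also tested for a difference between florets, and 0 members passed, as did 0% of all features. At an unadjusted p under 0.05 the difference held for 0 members, against 0.781% of all features, and upper minus lower florets had a median over the members of 0.05 with a range of -0.98 to 0.91.

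The counts in single florets rest on 2 pools per stage. In lower florets they came to 31 without the first meiocyte pool, 40 without the second, 42 without the first mid/late microspore pool and 37 without the second, where 1.44%, 2.04%, 1.9% and 1.5% of all features were lower. With the direct slides alone they were 18 in upper florets, against 0.691% of all features, and 39 in lower florets, against 1.43%. With all scans scaled to one spread they were 30 in upper florets, against 0.938% of all features, and 28 in lower florets, against 0.765%.

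**Figure D2:**
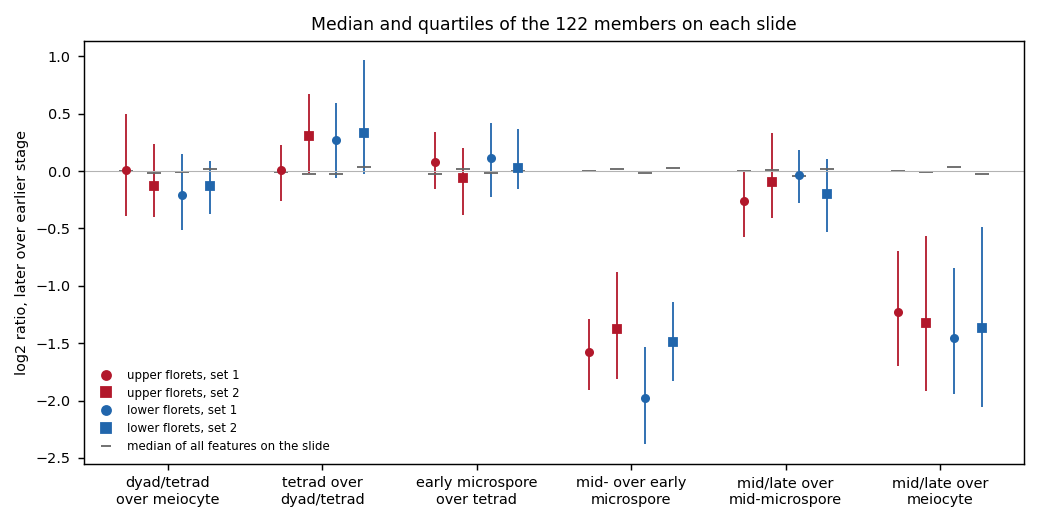
Median (points) and quartiles (bars) of the log2 ratios of the 122 members on each slide that compares stages, later over earlier, with the median of all 12160 features as a grey dash. The medians stay between -0.26 and 0.33 on all 16 slides of the 4 steps other than mid- over early microspore. They lie between -1.46 and -1.23 on the 4 slides of mid/late microspore over meiocyte.

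From meiocyte to dyad/tetrad, at the start of the series, no member passed the test, compared with 0.0493% of all features (limma, adjusted p under 0.05), and the members' median was -0.09. At an unadjusted p under 0.05 there were 25 members, 15 lower and 10 higher, against 5.51% of all features. The members' ratios at this step ranged from -0.96 to 1.45. From mid- to mid/late microspore, after the fall, the members' median was -0.14 with a range of -1.03 to 1.99, given without a test since mid-microspore pools took part in the choice.

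The stages before tetrad, which the choice did not use, divided the members. Relative to meiocyte, 65 members lay within 0.5 of 0 at tetrad, 19 were lower by 0.5 or more, 17 were higher by 0.5 to 1 and 21 were higher by 1 or more. These bounds were set after the values were seen and the tetrad pools took part in the choice, so no test is given. At mid/late microspore the 65 members had a median of -1.58 relative to meiocyte, with 54 called lower. The 21 members that were high at tetrad had a median of -0.0049 there, with 3 called lower. In this test 13.8% of all features were called lower, and 3 of 21 lies near that share. The ratios that chose the members were much alike in both groups, with medians of -1.69 for the 21 members and -1.51 for the 65. Both ratios have the meiocyte pools in common. The median of the 65 members ended below the meiocyte level, and that of the 21 members near it. This largely follows from the grouping, since the choice held the level from tetrad to early microspore and set the fall after it. From mid- to mid/late microspore the members' median was -0.14. The end levels are given as a description and add no support for the grouping.

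LOC100284353 (feature 8537) had the highest tetrad over meiocyte ratio of the members, 3.96, and is named, like the next features, after its values were seen. Its ratios from meiocyte to dyad/tetrad were 3.87 and 0.52 in upper florets and 0.03 and 1.37 in lower florets of sets 1 and 2, and from dyad/tetrad to tetrad 1.10 and 2.39 in upper and 4.08 and 2.48 in lower florets. In upper florets of set 1 the larger ratio was that of the first step, and on the other 3 slides that of the second. At mid/late microspore it stood at 0.48 and 0.14 in upper and 1.30 and 0.52 in lower florets relative to meiocyte, above 0 on all 4 slides without passing the test (0.61 ± 0.34 (SE), limma, adjusted p = 0.209). LOC100382173 (feature 1114) had a similar course, with 3.22 at tetrad and 0.51 at mid/late microspore relative to meiocyte. Feature 2656, which has no gene, was the only member higher at mid/late microspore than at meiocyte, at 0.88 ± 0.30 (SE, limma, adjusted p = 0.0454), with 1.43 and -0.02 in upper and 1.27 and 0.86 in lower florets. LOC100282073 (feature 4143) was one of the 3 that ended lower, with 2.55 at tetrad and -0.91 at mid/late microspore (limma, adjusted p = 0.0169).

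**Figure D3:**
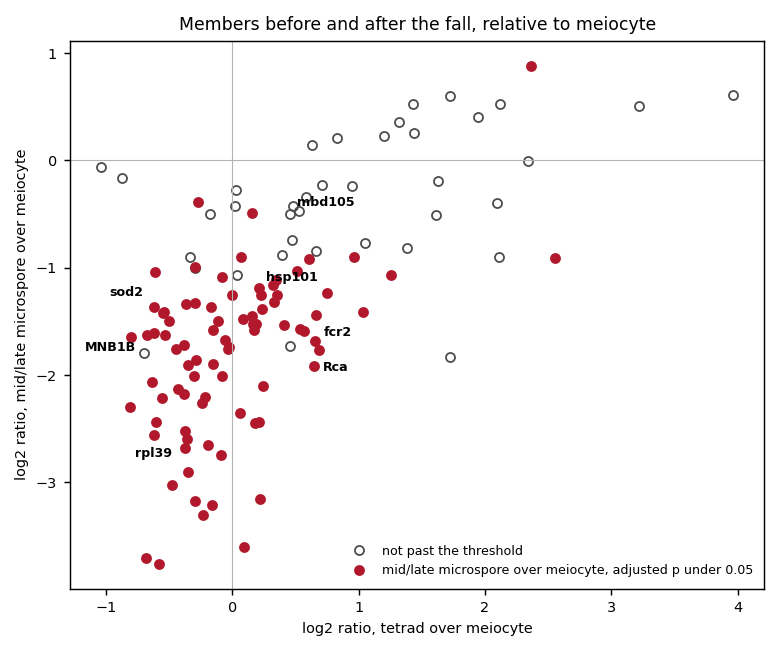
Each member's log2 ratio of tetrad over meiocyte (horizontal axis) and of mid/late microspore over meiocyte (vertical axis), florets averaged, with filled points where the vertical value passed an adjusted p under 0.05. Members near 0 on the horizontal axis mostly lie between -1 and -3 on the vertical one, and those beyond 1 on the horizontal axis lie mostly between -1 and 0.88.

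The largest falls belonged to features without a gene name. Feature 10701, which has no gene in the annotation, had mid- over early microspore ratios of -2.65 and -2.83 in upper florets and -3.61 and -3.02 in lower florets of sets 1 and 2. It was also lower at mid/late microspore than at meiocyte, with -2.37 and -3.22 in upper and -3.08 and -4.17 in lower florets, a mean of -3.21 ± 0.43 (SE, limma, adjusted p = 0.000234). The choice fixed the sign of the mid- over early microspore values. Those at mid/late microspore over meiocyte were also all far below 0. Between meiocyte and early microspore no ratio of this feature passed 0.55 in size. LOC100279839 (feature 7531) came next, with -3.30 and -3.09 in upper and -3.28 and -1.69 in lower florets at the chosen step and -2.17 and -1.73 in upper and -3.48 and -2.42 in lower florets at mid/late microspore over meiocyte (-2.45 ± 0.19 (SE), limma, adjusted p = 6.19e-06).

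Rca encodes Rubisco activase, which keeps the carbon-fixing enzyme Rubisco active in chloroplasts. Feature 11107 of this gene had mid- over early microspore ratios of -1.90 and -1.98 in upper and -2.42 and -2.14 in lower florets of sets 1 and 2, a mean of -2.11 ± 0.23 (SD, n = 4 slides). At mid/late microspore over meiocyte its ratios were -1.43 and -2.63 in upper and -1.76 and -1.84 in lower florets, and it was lower by a mean of -1.91 ± 0.28 (SE, limma, adjusted p = 0.000476), a 3.77-fold difference. All 4 slides of this second comparison lay below 0, while the choice had fixed the sign of the first. Among the named members Rca had the largest fall at the chosen step. The other green tissue genes on the array went mostly the other way: of 15 features of 11 genes, 8 were higher at mid/late microspore than at meiocyte and 1 was lower, with a median of 0.90, against 13.8% of all features each way. The small subunit of Rubisco, rbcS, reached 2.75 (feature 9047, limma, adjusted p = 1.92e-05), while cab-m1, a chlorophyll-binding protein gene, was the one lower (feature 7132, -1.70, adjusted p = 0.000179).

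The feature of rpl39 (feature 8591, also listed as ec2e), a gene for a protein of the large ribosomal subunit, had mid- over early microspore ratios of -2.21 and -3.12 in upper and -0.72 and -1.19 in lower florets of sets 1 and 2. At mid/late microspore over meiocyte the order of the florets was not the same, with -1.31 and -3.13 in upper and -3.90 and -2.05 in lower florets. The mean was -2.60 ± 0.21 (SE, limma, adjusted p = 7.02e-06). Its size depended on the scan, from -4.50 with low scans alone to -1.40 with high scans alone. The array's second rpl39 feature (feature 2086) did not share the pattern: it stood at -0.03 at the chosen step and at 0.45 at mid/late microspore over meiocyte (limma, adjusted p = 0.354), and its r with the first was -0.46 over the 40 slides that the choice did not use. Of 30 features of 18 ribosomal protein genes, this member included, 14 were lower at mid/late microspore than at meiocyte and 2 were higher, with a median of -0.65, against 13.8% of all features each way.

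MNB1B belongs to the high mobility group proteins, which bind and bend DNA in chromatin. Its feature 10459 had -1.37 and -1.08 in upper and -2.25 and -0.95 in lower florets at the chosen step, and -0.68 and -1.57 in upper and -1.72 and -2.45 in lower florets at mid/late microspore over meiocyte. The mean of this second comparison was -1.60 ± 0.38 (SE, limma, adjusted p = 0.00865). This call was lost without the second upper meiocyte pool (adjusted p = 0.052), without the first lower meiocyte pool (0.0933), and without the first (0.0867) or the second (0.0536) lower mid/late microspore pool, with the ratio between -1.57 and -1.42. Scaling all scans to one spread lost it as well (-1.10, adjusted p = 0.11). Of 29 features of 13 HMG protein and histone genes, 5 were lower and 4 were higher at mid/late microspore than at meiocyte, with a median of 0.02, where 13.8% of all features were called each way. The 5 were MNB1B, HMG5 at -1.51 (feature 10791, limma, adjusted p = 0.00011), hmg2 at -1.11, hmg3 at -0.96 and a feature of the linker histone gene H1 at -0.71 (feature 1038), while 2 other features of H1 and features of the linker histone genes his1a and hon101 were higher.

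sod2 codes for a copper and zinc superoxide dismutase, which removes superoxide radicals. Its feature 10567 had -1.68 and -0.53 in upper and -1.98 and -1.16 in lower florets of sets 1 and 2 at the chosen step, with both slides of set 1 lower than those of set 2. At mid/late microspore over meiocyte the values were -1.18 and -1.27 in upper and -1.94 and -1.07 in lower florets, a mean of -1.37 ± 0.16 (SE, limma, adjusted p = 0.000108). The gene's other features had ratios nearer 0: features 3771 and 9878 had -0.17 and -0.09 at the chosen step, and -0.11 and -0.01 at mid/late microspore over meiocyte (limma, adjusted p = 0.794 and 0.982). Their r with feature 10567 was 0.51 and 0.21 over the 40 slides that the choice did not use. Of 14 features for superoxide dismutases, catalases and ascorbate peroxidase, feature 10567 and CAT3 were lower and catalase1 was higher at mid/late microspore than at meiocyte, with a median of -0.06, against 13.8% of all features each way.

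hsp101 encodes a chaperone that pulls apart aggregated proteins after heat stress. Feature 5583 had -0.97 and -1.46 in upper and -1.35 and -1.195 in lower florets at the chosen step. It stood at -1.71 and -1.21 in upper and -0.85 and -1.01 in lower florets at mid/late microspore over meiocyte, with a mean of -1.19 ± 0.17 (SE, limma, adjusted p = 0.000465). The SD over 4 slides was 0.21 at the chosen step and 0.37 at mid/late microspore over meiocyte. Of 27 features of 13 heat shock and chaperone genes, 11 were lower and 0 higher at mid/late microspore than at meiocyte, with a median of -0.60, against 13.8% of all features each way. At an unadjusted p under 0.05 there were 19 of the 27 (limma), against 39.3% of all features. That list holds the 3 features of HSP18 and hsp18c that were left out by name, at -3.87, -3.19 and -2.50.

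mbd105, a gene for a protein with a domain that binds methylated DNA, did not pass the last against first comparison. Its feature 11146 had -1.17 and -0.55 in upper and -2.05 and -1.11 in lower florets at the chosen step, against 0.04 and -1.004 in upper and -0.57 and -0.45 in lower florets at mid/late microspore over meiocyte (-0.49 ± 0.19 (SE), limma, adjusted p = 0.079). With all 48 slides, which adds those of the choice, it passed (-0.55, adjusted p = 0.022). The array's second mbd105 feature (feature 5431) gave nearly the same values, with -1.004 at the chosen step and -0.39 at the last against the first stage. Of 6 features of the methyl-DNA binding and DNA methylation genes mbd101, mbd105, mbd123 and dmt101, 0 passed the last against first comparison by limma and 2 had an unadjusted p under 0.05, against 39.3% of all features.

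fcr2, the remaining gene with a name, also had 2 features. The member, feature 6768, had -1.73 and -0.52 in upper and -2.26 and -0.67 in lower florets of sets 1 and 2 at the chosen step. At mid/late microspore over meiocyte 1 slide stood apart, with -3.89 and -0.66 in upper and -1.197 and -0.98 in lower florets. The mean was -1.68 ± 0.46 (SE, limma, adjusted p = 0.018), and it came to -3.38 (adjusted p = 0.0528) with low scans alone and to -0.75 (adjusted p = 0.0101) with high scans alone. The call was lost without the second upper meiocyte pool (adjusted p = 0.0559), the first lower meiocyte pool (0.163) or the first lower mid/late microspore pool (0.151), with ratios of -1.797, -2.001 and -2.008. The ratio was smaller and still called without the pools of the slide that stood apart, at -0.79 without the first upper mid/late microspore pool (adjusted p = 0.0119) and -0.97 without the first upper meiocyte pool (adjusted p = 0.00994). The other fcr2 feature (feature 11457) missed the limit at the chosen step with -1.07 and was lower at mid/late microspore than at meiocyte by a log2 ratio of -0.74 (limma, adjusted p = 0.0128). By the course over the 5 steps between neighbouring stages it was also the feature with a gene name, outside the members, most like the members' mean (r = 0.994 over 5 steps). Next came bHLH129 (r = 0.988), with -0.49 from early to mid-microspore, and mtl1 (r = 0.985), with -0.30. The 5 steps include those of the choice, so these r in part repeat the choice and are given as a description. Over the 40 slides that the choice did not use, feature 11457 had an r of 0.80 with feature 6768.

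**Figure D4:**
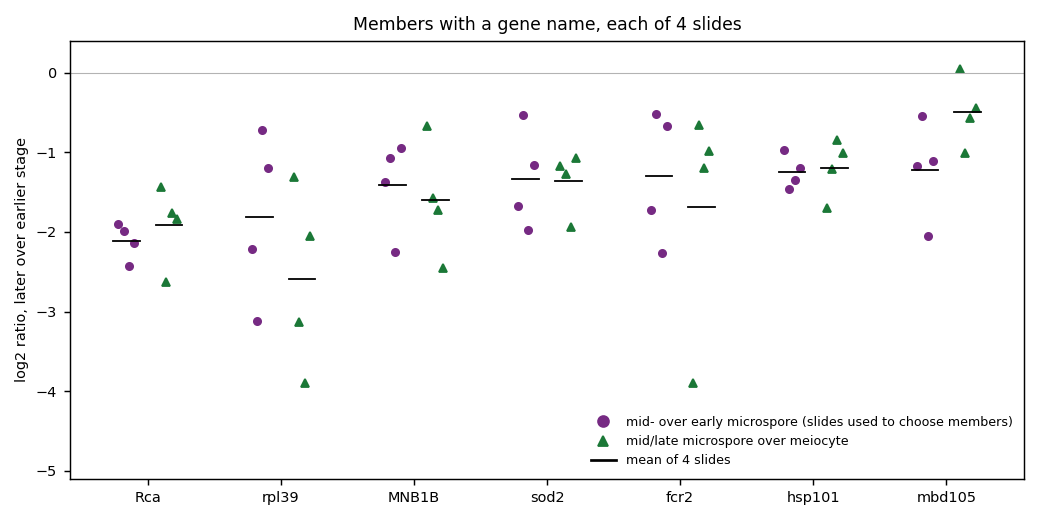
Log2 ratios of the 7 members with a gene name on each of 4 slides, for mid- over early microspore (circles, which chose the members) and mid/late microspore over meiocyte (triangles), with the mean as a line. All except mbd105 lie below -0.5 on each slide of both comparisons. The lowest slide of fcr2 lies at -3.89, apart from its others, and the highest of mbd105 lies at 0.04.

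Other features of the same genes gave a check on the members that is independent of their spots, though not of the RNA pools or of the comparison. Among the members, 6 genes had 2 features each, LOC100191291, LOC100192009, LOC100193694, LOC100272553, LOC100272941 and LOC542696, and the r of the pairs lay between 0.46 and 0.92 over the 40 slides that the choice did not use. In addition, features 3407 and 5782, which carry the same clone accession, had an r of 0.92 over those slides. A further 29 features that were not members belonged to 23 of the members' genes. Their mid- over early microspore ratios had a median of -0.85 and a range of -2.83 to 0.43. At -0.5 or below were 18 of the 29, or 62.1%, against 12.9% of all features, and 11 lay within 0.5 of 0. The 11 include features of sod2 and rpl39 and of LOC100276325, LOC100192885, LOC100216879 and LOC100281439, each of which had a member far from it.

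**Figure D5:**
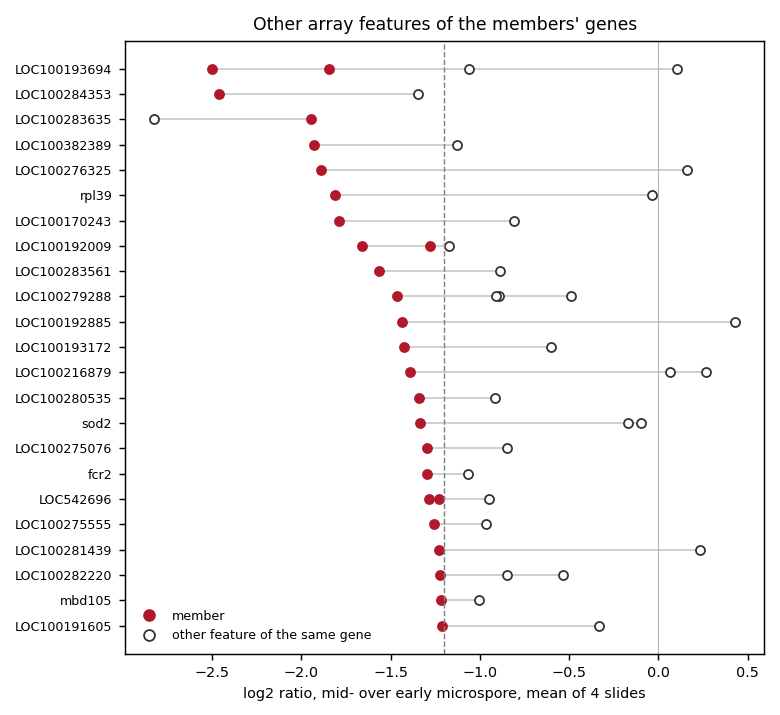
Mean log2 ratio of mid- over early microspore (horizontal axis, 4 slides) for the members (filled) and the other array features (open) of the 23 genes that have both, one gene per row, with the limit of -1.2 dashed. Open points lie left of -0.5 for 18 of 29 features and near 0 for sod2 and rpl39.

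Features with neighbouring numbers on the array resembled each other, by r over all 48 slides, those of the choice included. Over all features the median r across the 48 slides was 0.24 between features next to each other in number, compared with 0.08 for features 100 apart. Of the members, 22 were next in number to another member. In 12 cases a member was next to a feature with a larger fall and an r of 0.7 or more. LOC100273018 (feature 7534), with a fall of -2.34, was next to sbp27 (feature 7533), which stood at -3.79, and their r was 0.91. LOC100279839 (feature 7531), the second largest fall, lay 2 numbers from the same sbp27 feature with an r of 0.81. LOC100303964 (feature 10637) was next to HSP18 (feature 10638, -3.86) with an r of 0.82, LOC100283106 (feature 10634) lay 4 numbers from it with an r of 0.79, and sod2 (feature 10567) was next to LOC100283635 (feature 10568, -1.95) with an r of 0.85. Rca (feature 11107) was next to LOC100193284 (feature 11106), which had the smaller ratio of -0.86, with an r of 0.86. What the numbers stand for on the slide is not given in the labels, and the part of this likeness in the members' values was not tested. Without the 12 members, 74 of 110 were lower at mid/late microspore than at meiocyte, or 67.3%. The share was 68.0% of all 122 members and 13.8% of all features. LOC100279839 and LOC100283106, which lie further than 1 number from the larger fall, stayed among the 110. The count of 74 therefore does not take out all likeness between neighbours. It was added after the data were seen.

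No member was called between florets. Averaged over the meiocyte, dyad/tetrad and mid/late microspore stages, which took no part in the choice, upper over lower florets had a median over the members of 0.11, with a range of -0.80 to 0.96. The count of members past the test was 0, against 0.296% of all features (limma, adjusted p under 0.05). At an unadjusted p under 0.05 there were 23 members, against 12.6% of all features. Of these, 19 members (15.6%) were higher in upper florets, against 6.46% of all features, and 4 members (3.28%) were lower, against 6.16% of all features. On single slides the members' median was highest at dyad/tetrad in set 1, at 0.36 and 0.34 on the 2 slides with exchanged dyes, and reached 0.14 and 0.08 at that stage in set 2. With all 48 slides in the fit, which adds the slides that chose the members, 8 members passed, or 6.56%, near the 5.82% of all features.

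The 3 scans of a slide gave ratios of unequal size. The members' median from early to mid-microspore was -1.82 in low, -1.47 in medium and -1.34 in high scans. From meiocyte to mid/late microspore it was -1.59 in low, -1.29 in medium and -1.11 in high scans. The SD of the first ratio over all features ran in the same order, with 0.80, 0.63 and 0.56. Each scan alone would have chosen 150, 129 and 102 members, of which 99, 98 and 84 are among the 122.

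Markers of the cells in an anther were few on the array. None of the members was on the lists of tapetum, meiocyte, pollen or kernel storage markers. These lists hold 1, 4, 4 and 4 features, and the members are 122 of 12160. With so few features an overlap was unlikely for any choice, so its absence says nothing of the members' cell types. The green tissue list was put together without Rca, which is a member and works in green tissue. The tapetum list had 1 feature, of ms23, at 0.70 from meiocyte to mid/late microspore. It had an unadjusted p under 0.05 (limma) but did not pass the adjusted threshold. Of 4 meiocyte features 1 was lower, and of 4 pollen features, with a median of -0.50, and 4 kernel storage features, with a median of 0.64, 0 passed by limma and 2 of each list had an unadjusted p under 0.05, against 39.3% of all features. The part of any change in the mix of cells in the members' fall was not tested.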

How the data were processed

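Anther RNA was measured on 48 slides in 144 scans. The authors deposited 1 natural log ratio of the channels per feature and scan, centred near 0 (column medians -0.0252 to 0.0327). That the base is the natural log was read from the values, since no label states it: distances between repeated values matched that base in 59 cases in low scans, against 19 for log2 and 8 for log10. The software that normalised them is not given in the labels. Here each scan was turned to log2 and centred on its median, and a slide's value is the mean of its 3 scans. Slides between florets were used as deposited, as upper over lower, since 10 closed squares of slides then had r of 0.27 to 0.48 across features, and -0.05 to 0.05 when turned by the dyes.

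The replicate is the RNA pool, with 2 per stage and floret, and p-values measure the spread between pools. The 8 slides that chose the members stayed out of the fit. The 4 floret slides of early microspore pools were then joined to no other pool, so 36 slides and 20 pools entered, where 40 had been planned. Pool values were fitted per set by least squares (MASS 7.3.60.0.1), and limma 3.58.1 in R 4.3.3 was fitted with stage and floret groups and a term for set, with 9 residual degrees of freedom. Calls were made at 0.05 after Benjamini-Hochberg adjustment over all 12160 features. The procedure was tested on simulated data. Python 3.11.15 and matplotlib 3.10.9 were used for counts and figures. The number of arrays limits the precision, since signals over background are not used here.

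The members, lists and tests were chosen with earlier results of these data known. Every member with 1 gene and a gene name was described by name; others are given by counts, save the 2 largest falls, those nearest the limits and those said to be chosen later. Gene lists were matched by symbol and put together with the members known. Lists that needed product descriptions were not run. The 82 genes' features were matched to the maize reference by gene number.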

Additional observations from a re-analysis of the deposited data

How the results depend on the processing

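The count of members lower at mid/late microspore than at meiocyte was 83 with florets averaged, against 13.8% of all features. It stayed within 1.5 times under every alternative run. The lowest was 67 with all scans scaled to one spread, against 4.29% of all features. The highest was 92 with all 48 slides, which adds the slides that chose the members, against 22.5% of all features. In upper florets the count was 70, against 5.39% of all features. It was 30 with scaled scans, against 0.938%, and 18 with direct slides alone, against 0.691%. It was also smaller without single pools. In lower florets the count of 71 was 28 with scaled scans and 39 with direct slides alone, and 31 to 42 without single pools, where fewer pools entered and the lone pool of a group was assumed to vary like the others. From meiocyte to dyad/tetrad, no member passed in the main fit. High scans alone gave 1 (LOC100279956), against 0.0658% of all features. Scaled scans gave 2 (LOC100279956 and LOC100384335), against 0.197%. All 48 slides gave 1 (LOC100384335), against 0.156%. The fit without the replicate block gave 1 (LOC100279956), against 0.0822%. Between florets, none passed in the main fit, and scaled scans gave 1 (LOC100280532), against 0.337% of all features. All 48 slides gave 8, or 6.56% of members, near the 5.82% of all features. The fit without the replicate block gave 1 (LOC100280532), against 0.789%. Save for the replicate block, why these counts differ between settings was not tested. Without the block for set, the other counts were 85, 74 and 72 for florets averaged, upper and lower florets, and 0 for the difference between florets. The shares of all features were 15.7%, 6.79% and 7.1%, and 0% for that difference. Pool values were centred within each set, so the block was 0 by construction. Leaving it out kept every ratio and only raised the residual degrees of freedom from 9 to 10. This setting is therefore no check on the pairing of pools. The number of members was 122 and ranged from 92 with scaled scans to 150 with low scans alone, with 87 and 99 shared. Of the named members' ratios none changed sign under the 17 alternatives. The calls of MNB1B and fcr2 were lost under 5 and 7 of them. mbd105 gained a call with all 48 slides, which include those that chose the members. The 2 pools per group limit what can be called in a single floret.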
